A study of Rattus norvegicus with 58 samples.

Results

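The liver of ACI rats was set against the livers of 5 other inbred strains, BN, BUF, F344, M520 and WKY, by expression array. ACI contributed 2 of the 12 arrays of inbred rats and 2 of the 58 arrays in all, and each of the 5 other strains also contributed 2. Arrays were taken as ACI from the strain label. ACI is an inbred strain best known for its susceptibility to oestrogen-induced mammary tumours, BN is the strain of the rat reference genome, and all 6 strains are among the founders of the heterogeneous stock (HS), an outbred rat colony. The remaining 46 arrays came from HS rats, of which 23 were labelled glucose-normal and 23 glucose-intolerant, and they serve here as rats in which founder alleles are mixed. All rats were males of 17 weeks, housed in pairs on free feed, fasted overnight and decapitated, and the liver was frozen at once. The labels name no drug, special diet or engineered allele in any group and state no glucose tolerance for the inbred rats. They also leave out whether the 2 arrays of a strain came from different litters, cages or days, or at what hour the rats were killed.

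The liver clears foreign and endogenous toxic compounds in stages. Oxidation by cytochrome P450 enzymes and hydrolysis by esterases and epoxide hydrolases expose reactive groups, transferases then attach glutathione, glucuronate or sulphate, and transporters export the products. The transcription factor NRF2, held back by KEAP1 until electrophiles or oxidants modify KEAP1, binds antioxidant response elements and raises many of these enzymes. Inbred strains are homozygous at nearly every locus, so a strain carries 1 version of each gene and its regulatory sequence.

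The deposited values were log2 expression for 31042 probe sets. The median of an array lay between 5.33 and 5.39 over the 58 arrays, and the 2 ACI arrays had medians of 5.36 and 5.38. The 2 ACI arrays correlated with r = 0.996 across probe sets, which are not independent replicates, against 0.989 to 0.994 for the pairs of the other strains. The hepatocyte markers held the ACI arrays at list means of 13.3 and 13.4 (log2), within the range of 13.3 to 13.5 over the other 10, and 0 of 14 were called by limma, with 0 at an unadjusted p under 0.05. A gene was called where limma's two-sided test of ACI minus the mean of the 5 strain means gave a Benjamini-Hochberg adjusted p under 0.05 over all probe sets. The spread in that test is the spread between the 2 arrays of a strain. A call therefore does not mean that ACI lies outside the range of the other strains. A log2 difference of 1 is a 2-fold difference.

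Of 14217 genes, 348 (2.45%) were called, 208 higher (1.46%) and 140 lower (0.985%) in ACI. The typical called difference was modest, with a median size of 0.74, while the median difference of all genes was -0.02. A difference of at least 1 was reached by 55 of the higher genes and a difference of -1 or below by 34 of the lower genes. A difference of 2 or more was reached by 8 genes and of -2 or less by 5. At an unadjusted p under 0.05 stood 2276 genes (16%), against which the lists' counts below can be read. Their counts of called members can be set beside the 2.45% called over all genes. Lists and members were chosen with earlier results of these data known, so such shares describe the lists and test no enrichment. For 213 of the called genes (1.5% of all genes), both ACI arrays lay beyond all 10 other inbred arrays, 139 above (0.978%) and 74 below (0.521%). Called or not, 490 genes (3.45%) had both ACI arrays above the other 10 and 511 (3.59%) had both below. The number of called probe sets, 752 (2.42%), fell to 148 without ACI array 1 and to 177 without ACI array 2, and rose to 1452 without BUF array 1. With 1 ACI array left, the spread comes from the pairs of the other 5 strains, and the lone ACI array is assumed to vary as they do. This holds for every value below without an ACI array, and a call lost there reflects fewer samples as well. Of the 74 genes named by margin or list, 32 were called whichever ACI array was left out.

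**Figure D1:**
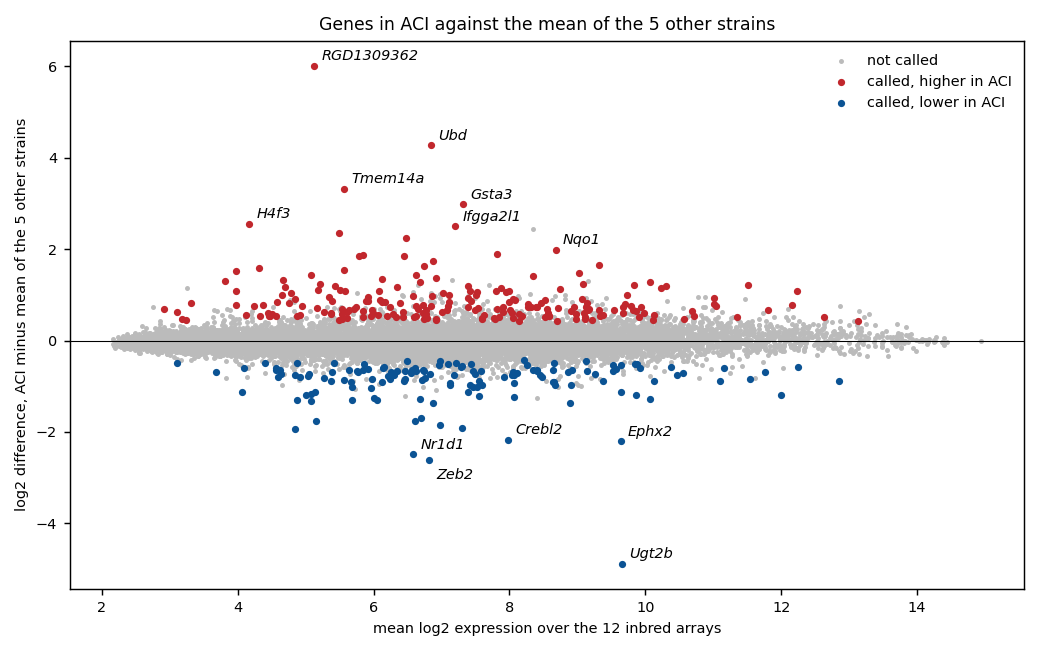
Each point is 1 gene, with its mean log2 expression over the 12 inbred arrays on the horizontal axis and its log2 difference, ACI minus the mean of the 5 other strains, on the vertical axis. Called genes are red (higher in ACI, 208 genes) or blue (lower in ACI, 140 genes), grey genes were not called, and the extremes are RGD1309362 at 6.01 and Ugt2b at -4.88.

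Against single strains, limma called 521 probe sets (1.68%) for ACI against F344, 714 (2.3%) against M520, 822 (2.65%) against WKY, 1030 (3.32%) against BN and 2011 (6.48%) against BUF. These 5 comparisons share the 2 ACI arrays, and their counts moved with single arrays. Without BUF array 1 the count against BUF rose to 4919, and without BUF array 2 it fell to 327. Without ACI array 1 the counts against F344, M520, WKY, BN and BUF were 161, 208, 292, 347 and 281. Without ACI array 2 they were 209, 249, 314, 448 and 383. Without F344 array 2 the count against F344 was 239. Without M520 array 1 or 2 the count against M520 was 271 or 327. Without WKY array 1 or 2 the count against WKY was 423 or 1241. Without BN array 1 or 2 the count against BN was 500 or 601. The order of the strains by these counts therefore rests on single arrays.

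The 15 higher and 15 lower called genes that stood farthest from the other inbred arrays were taken by their margin. The margin is the log2 distance from the nearer ACI array to the nearest of the 10 other inbred arrays. It is not a test against each strain, and some of these genes were not called against every single strain. G0s2 was called against none of the 5 (limma adjusted p from 0.056 to 0.193). Both ACI arrays had to lie beyond the other 10, so a lack of overlap follows from the choice. The first was RGD1309362, also known as Ifgga1, which belongs to a family of interferon-gamma-inducible GTPases. It measured 10.31 and 9.96 in the ACI arrays, and the other 10 arrays ran from 2.58 through a median of 3.35 to 6.02. The difference was 6.01 ± 0.15 (SE, n = 2 against 10, limma adjusted p = 2.67e-09). BN at a mean of 6.0 and M520 at 5.53 lay above BUF at 3.13, F344 at 2.74 and WKY at 3.20. In the HS rats the gene ran from 5.62 through a median of 9.35 to 10.67, and 10 of 46 arrays reached the lower ACI value.

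Its neighbour on the GRCr8 annotation among the measured genes, Ifgga2l1, belongs to the same GTPase family and, like the other neighbours named below, was picked after its values were seen. It measured 9.42 and 9.16 in ACI against 4.93 to 9.46 in the other arrays, a difference of 2.51 ± 0.10 (limma adjusted p = 1.06e-07). M520, at a mean of 9.45, and not ACI was highest for it, followed by ACI and BN at 8.33. The 2 neighbours thus had different orders of strains. How far sequence differences under the probes contribute to either was not tested, and this holds for every gene below.

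Histone H4 genes were the next group with a wide margin. H4f3 measured 6.43 and 6.17 in ACI, against 2.93, 3.78 and 4.39 as the lowest, median and highest of the other arrays, a difference of 2.56 ± 0.21 (limma adjusted p = 4.55e-05). H4cl1 measured 5.06 and 4.73 against 3.23, 3.59 and 4.0, a difference of 1.30 ± 0.16 (limma adjusted p = 0.000924, and 0.0536 without ACI array 1). In both genes none of the 46 HS arrays reached the lower ACI value, the HS maximum being 4.37 for H4f3 and 4.40 for H4cl1. A search of the other histone genes, made after these values were seen, found the third measured H4 gene, Hist4h4, called as well (0.75 ± 0.12, limma adjusted p = 0.0053), while 1 of 18 other histone genes was called, the linker histone H1f2 (0.75 ± 0.17, limma adjusted p = 0.0477). H4 genes encode near-identical proteins and similar messages, so the signal cannot be assigned to a single copy. H4f3, H4cl1 and H1f2 lie in the main histone cluster, as do the called phosphate and urate transporters Slc17a1 (0.66) and Slc17a3 (0.73). Among the measured genes between Slc17a1 and H4f3, Slc17a2, H3c1, Hist1h2af, Hfe, H1f6 and H1f4 were not called, nor were the next genes outward, Slc17a4, H2bc1, Abt1 and Zfp322a.

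Npat, a co-activator of histone gene transcription, was the 16th higher gene by margin and was named after its values were seen. It measured 6.38 and 6.35 in ACI against 5.44 to 5.84 in the other arrays (0.74 ± 0.11, limma adjusted p = 0.0046), and the HS maximum was 5.86. Dividing-cell markers had a list mean of 4.75 and 4.93 in ACI, within the 4.55 to 5.19 of the other arrays, and limma called 0 of 18, with 1 at an unadjusted p under 0.05.

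The margin list also held Cep295, Ercc6 and Tarbp1. Cep295, which takes part in centriole assembly, measured 5.49 and 5.79 in ACI against 3.65, 4.07 and 4.23, a difference of 1.58 ± 0.12 (limma adjusted p = 2.98e-05). Its 4 further probe sets were called in the same direction, with differences from 1.31 to 1.76, and no HS array reached the ACI level. Ercc6, the transcription-coupled repair protein defective in Cockayne syndrome, measured 7.77 and 7.57 against 6.49, 6.69 and 6.87 (0.97 ± 0.10, limma adjusted p = 0.000368). Tarbp1, an RNA methyltransferase of transfer RNA, measured 7.07 and 6.91 against 5.53, 5.91 and 6.15 (1.09 ± 0.12, limma adjusted p = 0.000416). Neither Ercc6 nor Tarbp1 was matched by any HS array, the HS maxima being 7.07 and 6.70.

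Among signalling genes, Adora2b, an adenosine receptor, measured 5.62 and 5.91 in ACI against 4.24, 4.43 and 4.74 (1.32 ± 0.14, limma adjusted p = 0.000342). Ikbip, a protein that binds the inflammatory kinase IKBKB, measured 6.92 and 6.76 against 4.67, 5.33 and 5.72 (1.54 ± 0.11, limma adjusted p = 1.76e-05). The second Ikbip probe set differed by -0.27 and was not called (limma adjusted p = 0.176), so the 2 probe sets of this gene disagree. Bmerb1 measured 6.3 and 6.55 against 5.0, 5.21 and 5.54 (1.19 ± 0.11). Tatdn3, a TatD-family nuclease, measured 6.73 and 6.67 against 5.54, 5.73 and 6.02 (0.95 ± 0.12, limma adjusted p = 0.0018, and 0.0727 without ACI array 1). Tatdn3 was at the ACI level in 18 of 46 HS arrays, Bmerb1 in 2, and Adora2b and Ikbip in 0. Cryl1, an enzyme of the uronate cycle, measured 8.90 and 8.75 against 7.14, 7.79 and 8.11 (1.14 ± 0.14, limma adjusted p = 0.000907), and no HS array reached it.

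The lower genes of widest margin were led by Crebl2, a leucine zipper transcription factor. Its probe set measured 6.01 and 6.34 in ACI against 8.01, 8.34 and 8.71, a difference of -2.17 ± 0.12 (limma adjusted p = 3.51e-06), while the second probe set differed by 0.17 and was not called (limma adjusted p = 0.592). Vsig10, an immunoglobulin-domain protein, measured 5.50 and 5.38 against 6.63, 7.18 and 8.03 (-1.85 ± 0.14, limma adjusted p = 2.08e-05). Pdzrn3, a ubiquitin ligase, measured 5.87 and 5.53 against 6.45, 7.75 and 8.50 (-1.92 ± 0.18, limma adjusted p = 0.000141). The lack of overlap in these 3 probe sets follows from the choice by margin. In HS rats 5, 1 and 1 of 46 arrays fell to the higher ACI value of Crebl2, Vsig10 and Pdzrn3.

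Ube2d1, Tysnd1 and Pithd1 followed. Ube2d1, a ubiquitin-conjugating enzyme, measured 4.92 and 5.01 against 6.12, 6.22 and 6.64 (-1.31 ± 0.11, limma adjusted p = 7.22e-05). Its second probe set differed by -0.35 and was not called. Tysnd1, the protease that processes peroxisomal enzymes, measured 8.83 and 8.92 against 9.78, 10.02 and 10.56 (-1.19 ± 0.12, limma adjusted p = 0.000342), and its neighbour Aifm2 was also called lower (-0.46, limma adjusted p = 0.0482). Pithd1 measured 7.85 and 7.88 against 8.60, 8.77 and 9.30 (-0.96 ± 0.10, limma adjusted p = 0.000341). No HS array came down to the ACI level of Ube2d1 or Pithd1.

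Eid1, an inhibitor of the acetyltransferase EP300, measured 8.65 and 8.76 against 9.50, 9.81 and 10.20 (-1.13 ± 0.12, limma adjusted p = 0.000369), and 15 of 46 HS arrays were as low. Shroom1, an actin-binding protein, measured 3.84 and 3.73 against 4.45, 5.15 and 5.95 (-1.31 ± 0.13, limma adjusted p = 0.00031), but its 2 further probe sets differed by 0.20 and 0.02 and were not called. G0s2, an inhibitor of the triglyceride lipase ATGL, measured 10.91 and 10.76 against 11.40, 11.57 and 12.24 (-0.85 ± 0.19, limma adjusted p = 0.0413). The G0s2 call was lost without ACI array 1 (0.361) or ACI array 2 (0.351), without BN array 1 (0.0724) or 2 (0.0686), and without M520 array 1 (0.0733). Ralgps2, an exchange factor for Ral GTPases, differed by -1.21, Samd10 by -0.81, Slfn9, a Schlafen protein, by -0.85 and Cradd, a death-domain adaptor, by -0.76. Of these 4, the calls of Ralgps2 (limma adjusted p = 0.0625), Slfn9 (0.0847) and Cradd (0.131) were lost without ACI array 1, and those of Samd10 (0.119) and Cradd (0.0717) without ACI array 2.

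**Figure D2:**
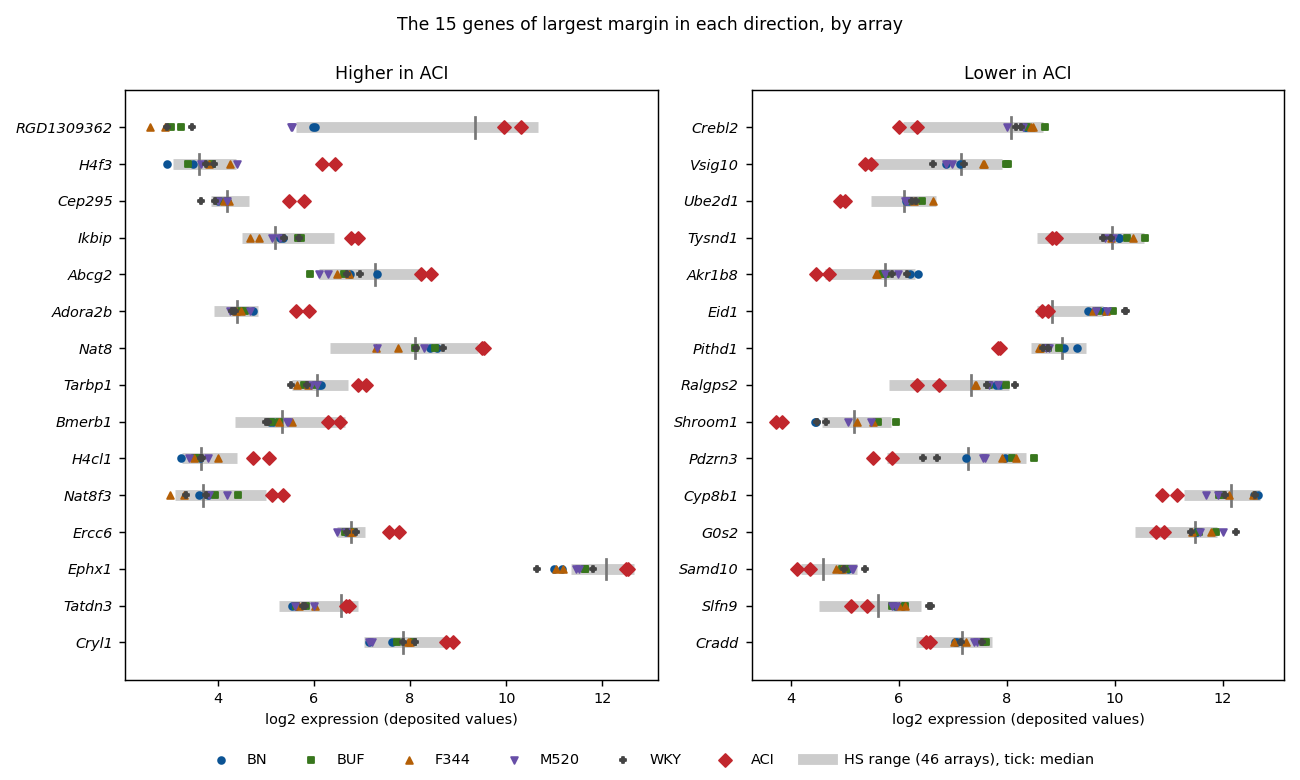
Log2 expression of the 15 higher (left) and 15 lower (right) genes of widest margin, 1 row a gene, with 1 point for each inbred array (red diamonds ACI, other symbols the 5 other strains). Grey bars span the 46 HS arrays with a tick at their median. The ACI points lie outside the other inbred points in every row by the choice of genes. RGD1309362, Tatdn3 and Eid1 are among the rows where the ACI points fall inside the HS bar.

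Nat8 and Nat8f3, among the named higher genes, belong to the family behind mercapturic acid formation, the export route of glutathione conjugates. Nat8, the acetyltransferase that finishes mercapturic acids, measured 9.53 and 9.50 in ACI against 7.30, 8.21 and 8.69, a difference of 1.41 ± 0.23 (limma adjusted p = 0.0067). Nat8f3, a gene of the same family, measured 5.12 and 5.34 against 3.01, 3.78 and 4.41 (1.52 ± 0.16, limma adjusted p = 0.000396), and Nat8f5, between them in the order of measured genes, differed by 0.48 (limma adjusted p = 0.0365). No HS array reached the ACI level of Nat8 or Nat8f3. The family is similar in sequence, so signal may be shared between its members, and the Nat8 call was lost without ACI array 1 (0.169) or 2 (0.115).

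Glutathione conjugation itself was represented by 21 measured transferases. Limma called 3 higher and 0 lower (14.3% in all, against 2.45% of all genes), with 8 at an unadjusted p under 0.05 and a list median of 0.10. Gsta3 measured 10.11 and 9.52 in ACI, while strain means were 9.13 in BN, 7.84 in M520, 6.99 in BUF, 5.64 in WKY and 4.51 in F344 (difference from the mean of 5, 2.99 ± 0.31, limma adjusted p = 0.000342). ACI was therefore the highest of a graded series, close to BN and far from F344. The theta-class neighbours Gstt3 (13.20 and 13.07 in ACI against 10.29, 12.30 and 12.75) and Gstt1 (10.51 and 10.32 against 8.96, 9.63 and 10.67) differed by 1.09 and 0.75, with limma adjusted p = 0.0379 and 0.0369. Both theta-class calls were lost without ACI array 1 (0.508 and 0.566) or ACI array 2 (0.241 and 0.204), and without single other arrays. For Gstt3 these were BN array 1 (0.0686) or 2 (0.0606), BUF array 2 (0.0573) and M520 array 1 (0.0717) or 2 (0.0683), and for Gstt1 BN array 2 (0.0596) and M520 array 1 (0.0642) or 2 (0.0674). Gsta1 and Gstm1, abundant hepatic transferases, differed by 0.35 and 0.36 and were not called.

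Gsta3 and Tmem14a, a small membrane protein named after its values were seen, are neighbours on GRCr8. Tmem14a measured 8.45 and 8.23 in ACI and 7.71 on average in WKY, while the 4 other strains averaged from 4.24 to 4.57. WKY, which shared the high level of Tmem14a, was among the lowest for Gsta3. In HS rats Tmem14a ran from 3.70 through 4.44 to 8.46 and Gsta3 from 5.12 through 8.46 to 10.43.

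Of 23 measured NRF2 targets, 5 were called higher and 1 lower (26.1% in all, against 2.45% of all genes). An unadjusted p under 0.05 was reached by 14, and the list median was 0.34 against -0.02 for all genes. Nqo1, a quinone reductase, measured 10.48 and 10.19 in ACI, overlapping BUF at a mean of 10.16 and above WKY at 9.22, F344 at 7.66, BN at 7.49 and M520 at 7.20. The difference from the mean of 5 was 1.99 ± 0.20 (limma adjusted p = 0.000297), and no HS array reached the lower ACI value. Akr7a3, which reduces aflatoxin dialdehyde, measured 11.21 and 11.03 against 8.64, 9.76 and 10.76 (1.27 ± 0.19, limma adjusted p = 0.0046). Ephx1, the microsomal epoxide hydrolase, measured 12.53 and 12.50 against 10.65, 11.31 and 11.80 (1.21 ± 0.21, limma adjusted p = 0.0103). Both stood above the other 10 arrays, and the HS median of Ephx1, 12.08, also did.

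Cbr1, a carbonyl reductase, differed by 0.58 and Me1, the malic enzyme that makes NADPH, by 0.62, the second Me1 probe set showing 0.12. M520, at means of 8.75 for Me1 and 7.18 for Cbr1, lay beside ACI at 8.43 and 7.26. The fall was in Akr1b8, an aldo-keto reductase, which measured 4.47 and 4.71 against 5.57, 5.82 and 6.35 (-1.30 ± 0.11, limma adjusted p = 8.53e-05). Genes at the core of the pathway were not called: Nfe2l2, which encodes NRF2, differed by 0.58 ± 0.17 (limma adjusted p = 0.115), the glutathione synthesis enzyme Gclc by 0.58 ± 0.17 (0.114), glutathione reductase Gsr by 0.93 ± 0.28 (0.123) and haem oxygenase Hmox1 by 0.03 ± 0.14 (0.953). Without ACI array 1 the calls of Akr7a3 (0.166), Ephx1 (0.214) and Me1 (0.699) were lost, and without ACI array 2 those of Akr7a3 (0.0746), Ephx1 (0.14) and Me1 (0.135). The Me1 call was also lost without BN array 1 (0.0649) or 2 (0.0736), BUF array 2 (0.0616), M520 array 2 (0.0662) or WKY array 1 (0.0608).

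The promoter windows of these genes show whether the core of the antioxidant response element, TGACNNNGC, is near a start site. Each window runs from 250 bases before to 50 after an annotated start in the RefSeq annotation of GRCr8, which is the sequence of BN and not of ACI. On either strand the motif occurred in 12.1% of 33469 promoter windows. Counted by gene, with a match in any of its windows, it occurred in 1773 of 11700 measured genes with a window (15.2%), 6 of 20 NRF2-list genes and 40 of 280 called genes (14.3%). Capitals mark the match in the window read 5′ to 3′ on the gene's strand, and in the Ephx1 window the match lies on the opposite strand, so its capitals are the reverse complement. Of the 6 called NRF2-list genes, Me1 and Ephx1 held it in a window, and Nqo1, Akr7a3, Akr1b8 and Cbr1 did not, nor did the other annotated starts of Gsta3 and Ephx1. The windows shown are those of Gsta3, Ephx1 and Me1 that hold the motif, and that of Nqo1, and no match says only that these letters are absent from the window.
Gsta3 promoter, first annotated start, chr9:31154739-31155038, plus strand: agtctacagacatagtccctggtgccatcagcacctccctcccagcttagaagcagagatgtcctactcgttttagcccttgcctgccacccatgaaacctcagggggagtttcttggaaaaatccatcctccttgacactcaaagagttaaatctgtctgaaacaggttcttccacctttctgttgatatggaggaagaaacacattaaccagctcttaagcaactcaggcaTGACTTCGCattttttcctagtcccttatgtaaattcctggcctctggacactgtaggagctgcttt
Ephx1 promoter, second annotated start, chr13:95263068-95263367, minus strand: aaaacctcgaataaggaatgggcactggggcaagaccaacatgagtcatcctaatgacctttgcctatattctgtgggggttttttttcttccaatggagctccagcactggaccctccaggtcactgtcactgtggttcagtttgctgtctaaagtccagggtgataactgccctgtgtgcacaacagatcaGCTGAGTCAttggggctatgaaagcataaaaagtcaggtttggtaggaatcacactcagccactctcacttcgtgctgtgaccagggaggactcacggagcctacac
Me1 promoter, chr8:96540195-96540494, minus strand: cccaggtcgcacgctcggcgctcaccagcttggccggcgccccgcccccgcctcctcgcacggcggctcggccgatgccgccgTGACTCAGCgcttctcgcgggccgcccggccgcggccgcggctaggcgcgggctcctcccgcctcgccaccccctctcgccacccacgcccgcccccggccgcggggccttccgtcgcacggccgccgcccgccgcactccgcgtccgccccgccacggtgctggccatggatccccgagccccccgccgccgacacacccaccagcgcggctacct
Nqo1 promoter, chr19:52220218-52220517, minus strand: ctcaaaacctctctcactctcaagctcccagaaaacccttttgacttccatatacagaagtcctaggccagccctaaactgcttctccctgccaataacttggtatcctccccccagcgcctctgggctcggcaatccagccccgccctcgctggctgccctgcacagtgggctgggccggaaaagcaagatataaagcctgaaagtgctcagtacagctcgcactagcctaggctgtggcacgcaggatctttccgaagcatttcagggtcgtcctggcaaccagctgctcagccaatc

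Other families carry out oxidation, hydrolysis and conjugation. Of 34 cytochrome P450 and related genes, limma called 1, Cyp2j4 (0.59 ± 0.13, adjusted p = 0.0332), 28 had a higher mean in ACI and 14 an unadjusted p under 0.05, with a list median of 0.22. BN and M520, both at a mean of 10.44, lay beside ACI at 10.48 for Cyp2j4. The Cyp2j4 call was lost without ACI array 1 (0.495) or 2 (0.22), without BN array 1 (0.059) and without M520 array 2 (0.0585). Ephx2, the soluble epoxide hydrolase, was low in both ACI and WKY, at 7.71 and 7.90 in ACI and a mean of 7.38 in WKY against means of 10.40 to 11.07 in the 4 other strains (-2.20 ± 0.17, limma adjusted p = 2.91e-05). Ces1c, a carboxylesterase, was higher by 0.43, its call lost without ACI array 1 or 2 and without the strain M520 (limma adjusted p = 0.11).

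Ugt2b, a glucuronosyltransferase, showed the lowest difference of any called gene. It measured 5.75 and 5.42 in ACI and averaged 5.29 in WKY, 7.18 in F344, whose arrays read 8.80 and 5.57, and 13.23 to 13.39 in BN, BUF and M520. The difference from the mean of 5 was -4.88 ± 0.54 (limma adjusted p = 0.000465), and a second probe set differed by -4.27. ACI and WKY overlapped and BN, BUF and M520 did not overlap them. Glucuronosyltransferase genes of this family are similar in sequence, so which copy gives the signal is uncertain. The HS median was 13.18. Adh4, an alcohol dehydrogenase, measured 7.12 and 6.95 against 6.02, 8.96 and 9.51 (-1.23, limma adjusted p = 0.002, and 0.0763 without ACI array 2). WKY, at a mean of 6.28, was lower than ACI for Adh4.

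The efflux pump Abcg2, which exports sulphated and other conjugates, measured 8.43 and 8.23 in ACI against 5.92, 6.65 and 7.32 (1.74 ± 0.18, limma adjusted p = 0.000369), and 1 of 46 HS arrays reached the lower ACI value. Of 23 uptake and efflux transporters, Abcg2 was the 1 called higher and Abcb1a, a multidrug pump, the 1 called lower (-0.79, adjusted p = 0.0156, and 0.372 and 0.121 without ACI array 1 or 2). The second Abcb1a probe set differed by -0.38 and was not called.

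**Figure D3:**
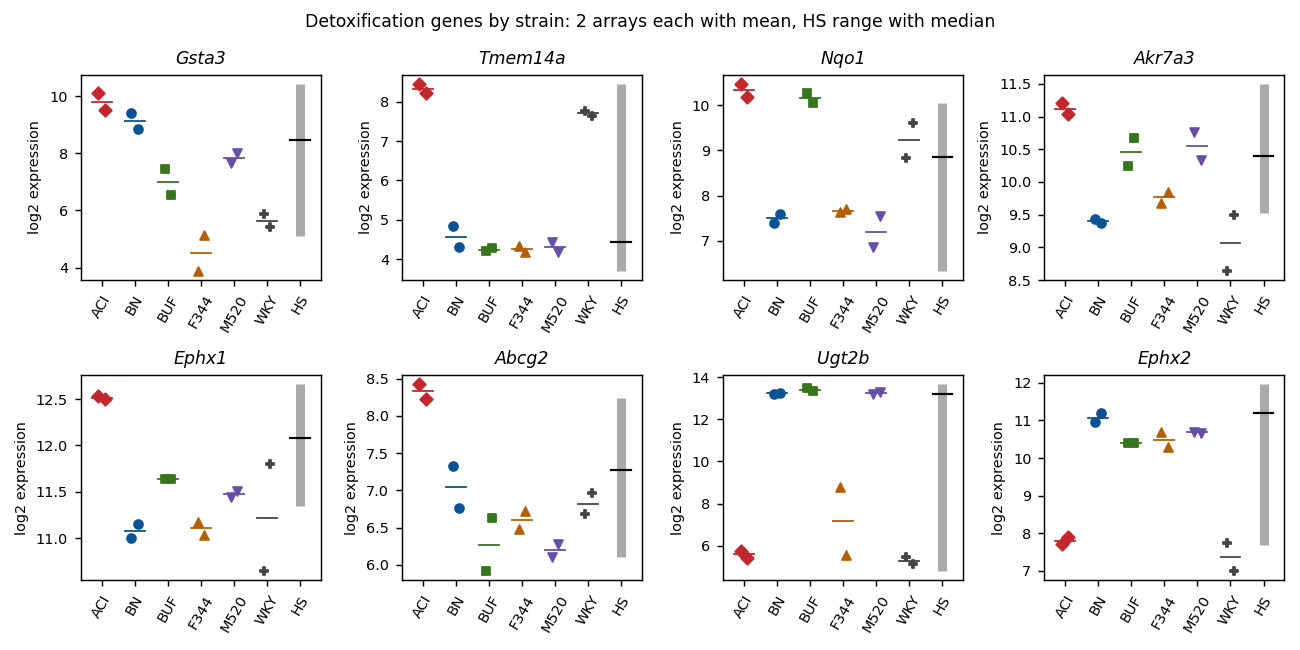
Log2 expression of 8 detoxification genes, 1 panel each, by strain. Points are the 2 arrays of a strain with a line at their mean, and the HS bar spans 46 arrays with a line at the median; Ephx2 and Ugt2b were low in ACI and WKY, Tmem14a high in ACI and WKY, and Nqo1 high in ACI and BUF.

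Of 19 circadian clock genes, 1 was called higher and 2 lower (15.8% in all, against 2.45% of all genes). An unadjusted p under 0.05 was reached by 10, and the list median was -0.08. The clock is a transcriptional loop in which BMAL1 and CLOCK drive the PER, CRY and REV-ERB genes, and REV-ERB proteins, encoded by Nr1d1 and Nr1d2, in turn repress Bmal1, so that levels swing over the day. Nr1d1 measured 4.20 and 4.81 in ACI and averaged 4.35 in M520, against means of 7.32 to 7.80 in the 4 other strains (-2.49 ± 0.28, limma adjusted p = 0.000597). ACI and M520 overlapped and both lay below all 8 arrays of BN, BUF, F344 and WKY. Cry1 measured 8.12 and 7.79 in ACI and averaged 8.10 in M520, against means of 6.10 to 7.09 in the other 4 (1.0 ± 0.16, limma adjusted p = 0.0072, and 0.268 and 0.0546 without ACI array 1 or 2). Nr1d2 was lower (-0.76 ± 0.17, limma adjusted p = 0.0411), with further probe sets at 0.10 and -0.51 that were not called. Its call was lost without ACI array 1 (0.667) or 2 (0.138), BN array 1 (0.0648) or 2 (0.0708), F344 array 2 (0.0538), M520 array 1 (0.0803) or 2 (0.0621), or WKY array 1 (0.0506).

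Bmal1 measured 7.92 and 7.72 in ACI against 6.15, 6.74 and 7.46 and was not called (1.01 ± 0.26, limma adjusted p = 0.0717), although both ACI arrays lay above the other 10 and above the HS maximum of 7.70. Rora differed by 0.67 (limma adjusted p = 0.0804), Per3 by -0.87 (0.205), Dbp by -1.07 (0.283) and Per2 by 0.02 (0.98), none called. The hour at which each rat was killed was not given, and strain and hour cannot be told apart here. The E-box CACGTG, the site of BMAL1 and CLOCK, occurred in 6.42% of all promoter windows. Counted by gene, it occurred in 1097 of 11700 measured genes (9.38%) and in 4 of 16 clock genes with a window. Nr1d1 is shown because it held one at its second annotated start and none at its first.
Nr1d1 promoter, second annotated start, chr10:84229405-84229704, minus strand: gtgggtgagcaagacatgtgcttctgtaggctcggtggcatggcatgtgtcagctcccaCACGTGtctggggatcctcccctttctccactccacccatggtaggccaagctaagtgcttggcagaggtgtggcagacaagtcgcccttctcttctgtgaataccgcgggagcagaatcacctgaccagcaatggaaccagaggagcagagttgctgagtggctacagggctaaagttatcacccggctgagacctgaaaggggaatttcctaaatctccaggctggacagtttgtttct

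**Figure D4:**
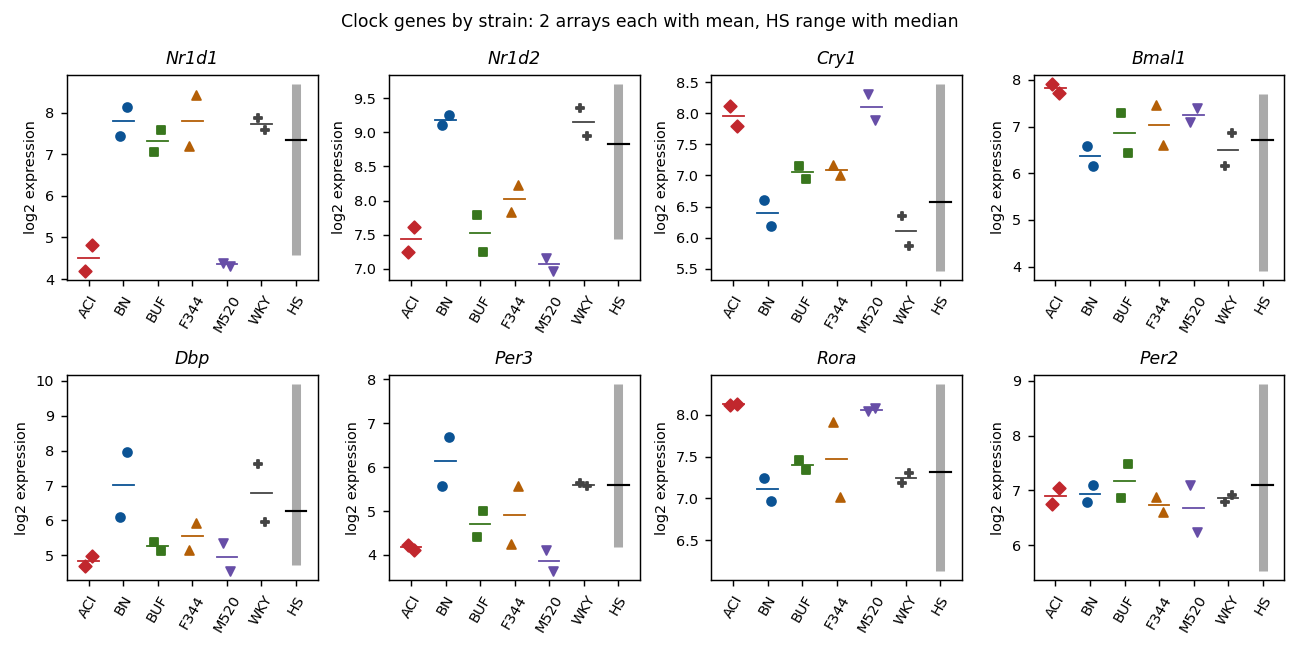
Log2 expression of 8 clock genes, 1 panel each, by strain, with the 2 arrays as points and their mean as a line; the HS bar spans 46 arrays with a line at the median. ACI and M520 sit at the low end for Nr1d1 and at the high end for Cry1.

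Lists of hepatic metabolism differed in their share of called members, from 0% of the cholesterol list to 11.1% of the fatty acid and triglyceride synthesis list, against 2.45% of all genes. Of 27 genes of fatty acid and triglyceride synthesis, Mlxipl, the carbohydrate-responsive factor ChREBP (0.66, adjusted p = 0.0124, and 0.0844 and 0.244 without ACI array 1 or 2), and Me1 were called higher and Acsl5, an acyl-CoA synthetase, lower (-0.72, adjusted p = 0.0162, and 0.255 and 0.204). Acsl5 was below the other 10 inbred arrays and below all 46 HS arrays. Limma called 0 of 21 cholesterol synthesis genes, though 20 had a higher mean in ACI and 7 an unadjusted p under 0.05, with a list median of 0.32. The largest, lanosterol synthase Lss, differed by 0.98 ± 0.24 (adjusted p = 0.0637). Acadm, the first enzyme of medium-chain fatty acid oxidation, was the 1 called of 34 (0.51, limma adjusted p = 0.0328, and 0.367 and 0.293 without ACI array 1 or 2). Its call was also lost without BN array 1 (0.0596) or 2 (0.0528) and M520 array 1 (0.0631) or 2 (0.0551).

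Cyp8b1, the hydroxylase that directs bile acids towards cholic acid, was the 1 called of 17 bile acid synthesis genes. It measured 10.87 and 11.15 in ACI against 11.69, 12.07 and 12.65, a difference of -1.19 ± 0.16 (limma adjusted p = 0.0018, and 0.0873 without ACI array 1), and no HS array was as low. Cyp7a1, the rate-limiting enzyme of the pathway, differed by 0.31 ± 0.62 and was not called.

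Of 41 genes of the urea cycle and amino acid breakdown, limma called 3, lower in ACI, and 29 had a lower mean. Gnmt, which uses S-adenosylmethionine to methylate glycine, averaged 12.11 in ACI against 12.41, 13.11 and 13.42 (-0.89, adjusted p = 0.0043, and 0.0525 and 0.137 without ACI array 1 or 2). Prodh2, which breaks down hydroxyproline, differed by -0.75, with M520 at a mean of 9.84 level with ACI at 9.83. Glutamine synthetase Glul differed by -0.60, its further probe sets showing 0.09 and -0.46. The calls of Prodh2 and Glul were lost without ACI array 1 (0.295 and 0.513) or ACI array 2 (0.187 and 0.198), and that of Glul also without BN array 2 (0.0501) or M520 array 1 (0.0623). Gnmt and Prodh2 were below every HS array. Sort1, a lipoprotein sorting receptor, was called lower (-0.89), with ACI at a mean of 6.81 beside BN at 6.83, M520 at 7.0 and F344 at 7.08, and with BUF at 9.58 and WKY at 8.0 above them. The Sort1 call only just held without BUF (limma adjusted p = 0.0499). Apoc4 differed by -0.59, its call lost without ACI array 1 (0.533) or 2 (0.281), BN array 1 (0.0684) or 2 (0.0774), M520 array 1 (0.0835) or 2 (0.0772), or WKY array 1 (0.0637). Of 20 gluconeogenesis and glycogen genes, 16 glycolysis genes and 28 insulin and growth factor signalling genes, limma called 0 in each, with 4, 3 and 4 at an unadjusted p under 0.05. Pck1, the gluconeogenic enzyme that fasting raises, differed by -0.04 ± 0.09.

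Immune genes were split by direction. Of 16 class I and related histocompatibility genes, 4 were called higher, among them RT1-A (8.06 and 7.92 in ACI against 4.01, 6.75 and 7.49) and RT1-CE10 (8.12 and 8.53 against 6.10, 7.32 and 7.77), by 1.86 and 1.09. Over the whole class I list, however, 6 members had a higher and 10 a lower mean in ACI, with a median of -0.11. RT1-N2 was called lower (-1.93), with WKY, at a mean of 8.55, far above the rest. Of 9 class II genes, RT1-Bb was higher by 1.44, with BUF and M520 low at means of 4.17 and 4.11 and a second probe set at -0.08. The peptide loading genes RT1-DMb and RT1-DMa were lower, at -0.97 and -0.60. Over the whole class II list, 7 members had a higher and 2 a lower mean, with a median of 0.13. Called members made up 31.2% of the class I list and 33.3% of the class II list, against 2.45% of all genes. An unadjusted p under 0.05 was reached by 8 of 16 and 4 of 9. These loci are highly polymorphic and near-identical between copies, so which copy a probe set reads is uncertain. Calls lost without an ACI array were those of RT1-CE10 without array 2 (0.168), RT1-CE16 (0.511 and 0.323), Cd1d1 (0.419 and 0.168) and RT1-DMa (0.358 and 0.252) without array 1 or 2, and RT1-DMb without array 2 (0.0621). RT1-DMa was also lost without M520 array 1 (0.0539) or 2 (0.0515), and RT1-CE16 without 7 other single arrays, at adjusted p from 0.0535 to 0.0821. With the whole strain WKY left out, the calls of Cd1d1 (limma adjusted p = 0.0644), RT1-DMa (0.099) and RT1-CE16 (0.122) were lost.

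Of 39 interferon response genes, 4 were called higher and 1 lower (12.8% in all, against 2.45% of all genes). An unadjusted p under 0.05 was reached by 9, against 16% of all genes, and the list median was 0.06. Cxcl10, a T cell chemokine, measured 5.98 and 6.24 against 4.60, 4.90 and 5.53 (1.12 ± 0.15, limma adjusted p = 0.0025, and 0.0981 without ACI array 2), and its genomic neighbour Cxcl9 differed by 0.74. Ubd, the ubiquitin-like protein FAT10, was the 1 called of 13 immunoproteasome genes, high in ACI (10.53 and 10.28) and in F344 (mean 9.62) and between 5.11 and 5.50 on average in the other 4. Ifit1 and Parp9 differed by 0.72 and 0.73, Parp9 being higher still in WKY (mean 9.16 against 9.01 in ACI), and Mx2 by -1.70, but a second Mx2 probe set was called in the opposite direction at 1.07. Icam1, an adhesion molecule, was called lower (-0.80, limma adjusted p = 0.0095) beside Mrpl4 (0.60). For Icam1 ACI averaged 7.81, near BN at 7.86 and WKY at 8.02. For Mrpl4 ACI averaged 9.59, near BN at 9.56 and WKY at 9.55. The calls of Cxcl9 (0.29 and 0.21), Ifit1 (0.741 and 0.0557) and Parp9 (0.213 and 0.0518) were lost without ACI array 1 or 2. That of Ifit1 was also lost without BN array 1 (0.0596) or 2 (0.0708), BUF array 2 (0.0549) or M520 array 1 (0.0796) or 2 (0.0681).

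Limma called 3 of 28 acute phase genes (10.7%, against 2.45% of all genes). Serpina3m, a serine protease inhibitor, was called higher (0.66), with WKY low at a mean of 9.96 and the other strains near ACI. The siderophore binder Lcn2 (-1.12) and the interleukin receptor Il1r1 (-0.52) were called lower. Lcn2 averaged 3.13 in ACI, with F344 at 3.19 and M520 at 3.42 close to it and BN, BUF and WKY between 4.63 and 5.26. Of 37 complement and coagulation genes, limma called C6, a component of the membrane attack complex (0.67), which lay at 9.88 in both ACI arrays, between M520 at a mean of 7.89 and WKY at 10.86. These 4 calls were lost without ACI array 1, at adjusted p of 0.261 for Serpina3m, 0.261 for Lcn2, 0.632 for Il1r1 and 0.342 for C6. Without ACI array 2 the values were 0.168, 0.255, 0.0708 and 0.219. Il1r1 was also lost without BN array 1 (0.0522) or M520 array 1 (0.0536) or 2 (0.0524). With a whole strain left out, the Serpina3m call was lost without WKY (limma adjusted p = 0.308) and that of C6 without M520 (0.258). Those of Lcn2 (0.0618) and Il1r1 (0.0631) were lost without BN, and that of C6 also without BN or BUF.

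In several other lists no member was called. Limma called 0 of 24 sex- and growth-hormone-patterned genes, 0 of 29 heat shock and endoplasmic reticulum genes, 0 of 41 oxidative phosphorylation genes and 0 of 21 ribosomal protein genes, with 8, 6, 4 and 1 at an unadjusted p under 0.05. Bcl6, a repressor under growth hormone control, measured 10.67 and 10.10 in ACI against 6.02, 7.51 and 10.89 and was not called, its standard error being large (2.44 ± 0.99, limma adjusted p = 0.258). Of 21 glucocorticoid targets, Lcn2 was the 1 called.

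**Figure D5:**
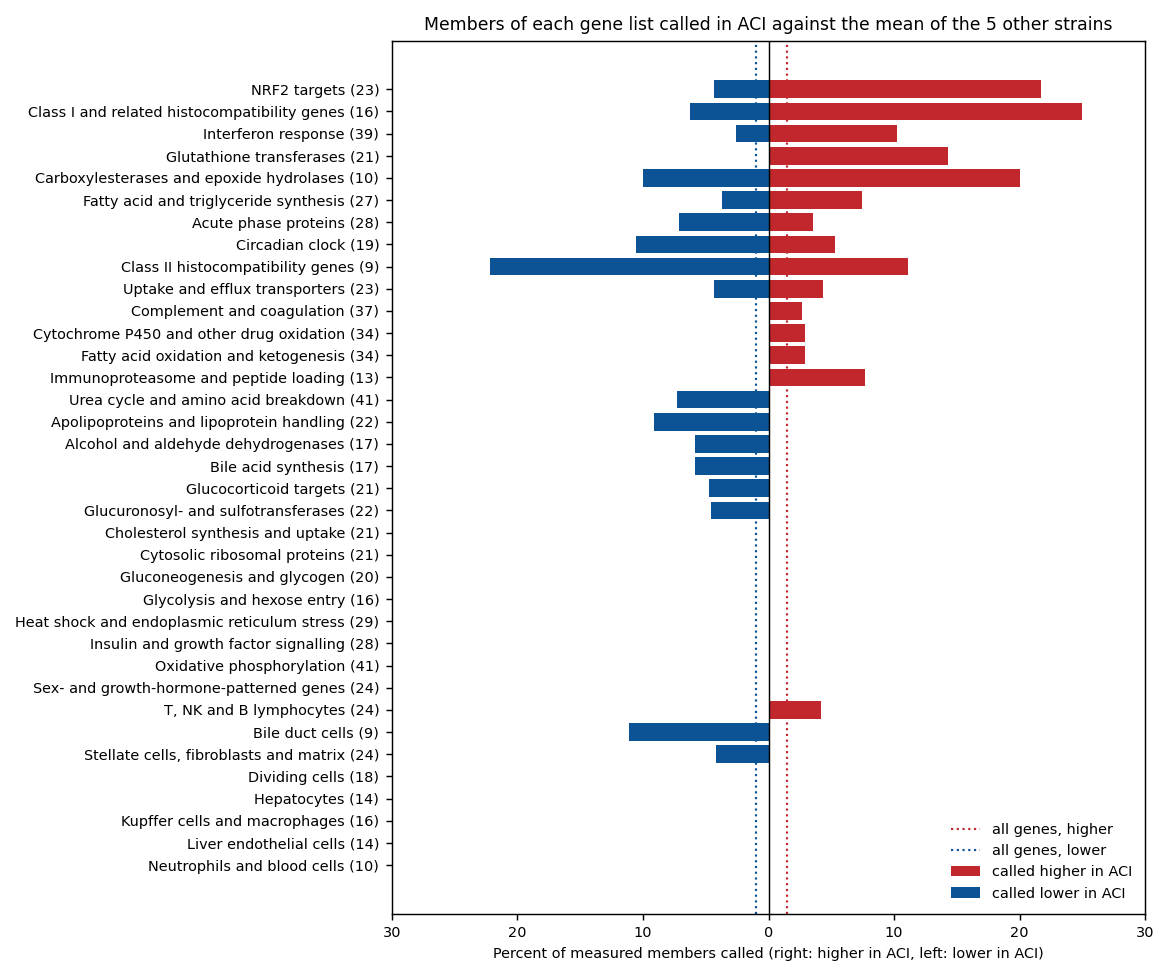
Percent of each gene list's measured members (number in brackets) called higher (red, to the right) or lower (blue, to the left) in ACI, with dotted lines at the share of all genes called higher (1.46%) and lower (0.985%). NRF2 targets, class I genes and esterases and epoxide hydrolases reach furthest to the right, and class II genes to the left.

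Few cell type markers were called. Limma called 0 of 16 Kupffer cell and macrophage, 0 of 14 endothelial and 0 of 10 neutrophil and blood cell markers, with 3, 5 and 2 at an unadjusted p under 0.05. The list means of Kupffer markers were 8.61 and 8.89 in ACI within the 8.17 to 9.41 of the other arrays, and those of endothelial markers 7.49 and 7.52 within 7.17 to 8.09. All 10 neutrophil and blood cell markers had a lower mean in ACI, with a median difference of -0.17. Their list means were 5.08 and 5.32 in ACI against 5.08 to 5.76 in the other arrays. Of 24 lymphocyte markers, Cd8a was called higher (0.59, limma adjusted p = 0.0103, and 0.296 and 0.105 without ACI array 1 or 2), with its further probe sets at 0.42 and -0.02. Of 24 stellate cell and matrix markers, Lox, a collagen cross-linker, was called lower (-1.77). It measured 3.76 and 3.60 in ACI, above the means of 3.21 to 3.50 in BUF, F344 and M520. BN and WKY were high, at means of 9.37 and 7.79. The Lox call was lost without the strain BN (limma adjusted p = 0.13). Cd24, a bile duct marker, was the 1 called of 9 (-0.72, limma adjusted p = 0.0136, and 0.124 and 0.236 without ACI array 1 or 2). Over the lymphocyte, stellate and bile duct lists the median differences were 0.046, -0.025 and -0.035. Of their members, 13, 10 and 2 had a higher and 11, 14 and 7 a lower mean in ACI. The lymphocyte list means were 5.05 and 5.22 in ACI, within 4.95 to 5.28 in the other arrays. Those of stellate markers were 6.81 and 6.88 within 6.59 to 7.67, and those of bile duct markers 5.52 and 5.58 within 5.42 to 6.54. In whole liver, fewer cells of a type and less RNA per cell cannot be told apart.

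Of the 348 called genes, 135 were not beyond all others, 69 of the higher and 66 of the lower. Among the 5 other strains, WKY had the highest mean for 22 of the higher and the lowest mean for 23 of the lower. BUF had the lowest mean for 2 of the lower. How often each strain is the extreme of the 5 over all genes was not counted. Zeb2, a zinc-finger transcription factor named after its values were seen, is an example with WKY lowest. It measured 4.58 and 4.71 in ACI and 4.72 on average in WKY, against means of 7.57 to 8.11 in the 4 other strains. These values are from 1 of its 5 probe sets, the one of highest mean, and the others were not compared. On GRCr8, 29 of the called genes with a position (8.43%) adjoined another called gene, against 4.76% of all genes, and 11 of the 14 runs held 1 direction. Runs include Tmem14a with Gsta3, Gstt1 with Gstt3, Nat8f3 with Nat8f5 and Nat8, Cxcl10 with Cxcl9 and RT1-DMb with RT1-DMa.

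The HS rats show how far these levels reach in mixed genomes, in arrays the ACI comparison does not use. Over all genes the median SD across HS arrays was 0.17, against 0.34 over called genes, and in the brighter genes 0.18 against 0.33. Of the 139 genes above all others in ACI, 32 had no HS array at the ACI level, and of the 74 below, 14. Over all genes, called or not, both ACI arrays lay above every HS array for 102 (0.718%) and below every one for 64 (0.450%). The HS median lay above all 10 other inbred arrays for 23 of the 139, among them RGD1309362, Ephx1, Tatdn3, Cxcl10 and RT1-CE10. It lay below them for 11 of the 74, among them Eid1 and, only just, Ube2d1. For Ube2d1 the HS median was 6.11 and the lowest other inbred array 6.12, and no HS array came down to the ACI level. How often the HS median lies beyond the 10 arrays over all genes was not counted. When the 23 intolerant HS rats were set against the 23 normal ones, limma called 0 of 31042 probe sets (0%), with 2483 (8%) at an unadjusted p under 0.05. The 30 genes of widest margin differed there by -0.43 to 0.50, with 4 at an unadjusted p under 0.05 and a smallest limma adjusted p of 0.509.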

How the data were processed

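Per the labels' protocols, RNA was amplified by a two-cycle cDNA method, biotin-labelled and hybridised to Affymetrix arrays, 1 array a sample. The values deposited by the authors are on a log2 scale and cover 31042 probe sets. Partek is the tool listed in the submitters' processing notes, with no version. How background was corrected and probes were summarised and normalised: not given in the sources used here. Arrays have no read depth, and their number limits precision.

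The 12 inbred arrays were fitted with limma 3.58.1 in R 4.3.3 (6 strain means, 6 residual degrees of freedom, no filter). P-values were adjusted by Benjamini-Hochberg over all probe sets. Each p-value of this fit reflects spread between arrays of the same strain alone, which may be technical. Spread from strain to strain does not enter it. The HS groups were fitted separately. Of the probe sets, 20826 had 1 gene symbol, 436 several and 9780 none; a gene is its probe set of highest mean. Named genes were the 15 of widest margin in each direction among called genes beyond all other inbred arrays, and up to 5 called members of each of the gene lists. Members and lists were chosen with earlier results of these data known. On simulated data for ACI against the mean of 5, 20.9% of shifts of 0.5, 85.1% of 1 and 100% of 2 were recovered. Of the 31042 probe sets, 4 of those left unshifted were called. The simulated noise was normal and independent, around 1 mean per probe set, with no array-wide effects and no other strain differences. It therefore does not give the rate of false calls in the real arrays. Promoter sequences came from RefSeq (GRCr8). Alternatives tried were probe set filters, normalisations, variance estimates, sample sets, the replicate block and leaving out each array or strain, the last chosen after seeing the data.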

Additional observations from a re-analysis of the deposited data

How the results depend on the processing

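Of the 30 genes of widest margin, 16 were called under every alternative run, and none of the 44 further list genes was. No named gene reversed. With any 1 array or strain other than ACI left out, 52 of the 74 named genes kept their call throughout. Of 74 named genes, 37 were called without ACI array 1, 37 without ACI array 2 and 32 in both cases. The called probe sets numbered 752 for ACI against the mean of 5. They numbered 364 with 1 probe set per gene, where fewer were tested, 2673 with array weights and 172 with no variance moderation. With all 58 arrays in the fit they numbered 264, and with the 10 other arrays as 1 group 57. The genes beyond all others, 213, numbered 592, 57, 102 and 29 under the last 4 of these alternatives. With the 10 arrays as 1 group, differences among the 5 strains count as spread. With all 58 arrays, differences among HS rats of a group do so too. How much each choice contributes to the counts was not tested. Leaving out 1 array gave 148 to 1452 probe sets and 51 to 414 genes for these 2 counts. It gave 347 to 1234 against BN, 281 to 4919 against BUF, 161 to 670 against F344, 208 to 821 against M520 and 292 to 1241 against WKY. With the brighter probe sets or other scalings, these 7 counts stayed within 1.5 times; with trended variance or 1 strain left out, which were run for the 2 counts against the mean of 5 alone, those 2 did. Of 504 list counts under alternatives, 395 did, and these include lists that stayed at 0 calls. In the HS glucose comparison 0 calls became 1 with quantile normalization and 12 with array weights.

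The labels share replicate numbers 1 and 2 across strains, but same-numbered arrays deviated together in only 3 of 15 strain pairs (correlation over 0.1, range -0.146 to 0.421), so the numbers were not taken as pairs. With the replicate block, 712 probe sets were called against the mean of 5, 198 genes were beyond all others, and 72 of 74 named genes kept their call. With 2 arrays a strain and no hour, litter or scan information, strain and such factors cannot be told apart.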
